A study of Mus musculus with 4 samples.

Results

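The metabotropic glutamate receptors described here are the products of 6 genes, Grm2, Grm3, Grm4, Grm5, Grm7 and Grm8, taken by symbol from the 43348 genes of the deposited matrices. The study asked how loss of the NMDA receptor affects interneurons that arise in the medial ganglionic eminence (MGE), and profiled sorted cells of frontal cortex and hippocampus by droplet single-cell RNA sequencing (10x Genomics 3′ kits, unique molecular identifiers, UMIs). All animals carried Nkx2-1-Cre, a recombinase active in MGE progenitors, and the Ai14 reporter, which marks recombined cells and their progeny with TdTomato. In the Grin1-null groups the gene of the obligatory NMDA receptor subunit, Grin1, was flanked by loxP sites and lost wherever Cre had acted, while the WT groups carried the intact gene. Animals were juvenile, at postnatal days 18 to 20, males and females were pooled, and TdTomato-positive cells were sorted from acute slices kept in buffers with tetrodotoxin, APV and Actinomycin-D.

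Each of the 4 samples held several libraries, told apart by the suffix of the cell barcode: 3 of WT cortex, 3 of WT hippocampus, 2 of Grin1-null cortex and 2 of Grin1-null hippocampus. Library 1 of each group was made with the v2 kit and the others with the v3 kit. A library was 1 region of pooled animals. WT libraries of the same number in cortex and hippocampus varied together more than most others, so the 10 libraries may not be independent. Whether pairs shared animals cannot be told from the counts alone. The study describes the WT cells of both regions as coming from 1 set of mouse brains in 3 biological replicates, and the null mice as from the WT litters. The p-values below measure the spread between these libraries. WT cortex libraries 1, 2 and 3 held 9306756, 14050536 and 27341723 UMIs in 1277, 3830 and 3930 cells. WT hippocampus libraries held 10551025, 8781135 and 20438462 UMIs in 2219, 4599 and 3135 cells. The null libraries held 1452379 and 24668652 UMIs in 177 and 2578 cells of cortex, and 3851048 and 43644831 UMIs in 401 and 4055 cells of hippocampus. The median number of UMIs per cell was lowest in WT hippocampus 2, at 1479, and highest in null hippocampus 2, at 9763. No pair of libraries shared more than 12 cell barcodes, at most 0.565% of the smaller library.

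Cells fell into 35 clusters, and a cluster was called after a cell type (SST-like, oligodendrocyte-like and so on, written without the suffix from here on) where it carried that type's marker genes. SST cells were clusters 4, 6, 8, 12, 23 and 26, led by Cbln4 and Calb2 in cluster 4, by Crh and Tac2 in cluster 8, by Th in cluster 12 and by Chodl, Nos1 and Npy in cluster 23. Cluster 12 carried the markers of Th-expressing interneurons and was joined to SST, as in the classes of the study. PVALB cells were clusters 1, 25 and 31. Both clusters 2 and 17 had a marker of interneurons of the caudal eminence, Adarb2, among their 10 leading genes, where cluster 2 also had 4 neurogliaform markers and cluster 17 had none, so these cells are compared as clusters 2 and 17, by number. Of the 603 cells of cluster 17, 514 came from WT hippocampus 2, where they were 99.2% of the cells of clusters 2 and 17 together. Sst stood between 8716 and 16410 CPM (the counts-per-million scale, here of UMIs summed over the cells of a class in a library, and the unit of every level below) in the SST cells of the 6 WT libraries. Sorted cells also included glutamatergic neurons, the oligodendrocyte lineage, astrocytes and small numbers of other cells. Another 5 clusters with 2311 cells stayed unnamed, 0.856% to 17.5% of the cells of a library.

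Grin1 was lower in every null library than in every WT library of the same region, in SST cells, PVALB cells and clusters 2 and 17. In SST cells of cortex it stood at 152, 255 and 231 CPM in WT and at 36.3 and 27.7 CPM in null libraries. Hippocampal SST cells had 121, 205 and 157 CPM in WT and 22.2 and 21.9 CPM in null libraries. In PVALB cells they were 111, 215 and 180 against 43.1 and 23.3 CPM in cortex, and 102, 168 and 125 against 21.4 and 17.4 CPM in hippocampus. Clusters 2 and 17 had 119, 183 and 164 CPM in WT cortex against 36.2 CPM in null cortex 2, since null cortex 1 held only 5 such cells, and 115, 111 and 134 against 33.2 and 15.5 CPM in hippocampus. The labels therefore matched the targeted gene in all 10 libraries. The sources used here do not say which exons the floxed allele loses, so the remaining UMIs cannot be read as intact transcript. In the test of each class by region (edgeR, UMI sums per library, called at an adjusted p under 0.01), Grin1 had log2 differences of -2.75 (SST, cortex), -2.53 (PVALB, cortex), -2.86 (SST, hippocampus) and -2.85 (PVALB, hippocampus), with adjusted p-values of 0.0529, 0.0327, 0.0377 and 0.0707. Over the alternative settings these adjusted p-values ran from 1.05e-10 to 1, from 3.93e-07 to 0.994, from 1.12e-11 to 1 and from 1.28e-07 to 1. In clusters 2 and 17 Grin1 had -2.12 in cortex (adjusted p 1, range 0.344 to 1) and -2.40 in hippocampus (adjusted p 0.860, range 0.000162 to 0.992).

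Metabotropic glutamate receptors are receptors that couple to G proteins and set the strength of transmission more slowly than the glutamate-gated channels. Grm5 encodes the group I receptor of the 6, which couples through Gq to phospholipase C and sits around the postsynaptic density, where Homer proteins tie it to the scaffold that also holds NMDA receptors. Group II (Grm2, Grm3) and group III (Grm4, Grm7, Grm8) couple through Gi/o and lower adenylyl cyclase activity, and in neurons most of them act at or near presynaptic terminals, where they curb release. The identifiers in the files were ENSMUSG00000049583.10 for Grm5, ENSMUSG00000023192.9 for Grm2, ENSMUSG00000003974.5 for Grm3, ENSMUSG00000063239.12 for Grm4, ENSMUSG00000056755.9 for Grm7 and ENSMUSG00000024211.11 for Grm8.

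The 6 genes lie on 5 chromosomes of GRCm38 (GENCODE M21). Grm5 is on chromosome 7, from 87584168 to 88134907 on the plus strand, and Grm7 on chromosome 6, from 110645581 to 111567230 on the plus strand. Grm8, also on chromosome 6, runs from 27275119 to 28135178 on the minus strand. Grm2 is on chromosome 9, from 106643095 to 106656082, Grm3 on chromosome 5, from 9485541 to 9725170, and Grm4 on chromosome 17, from 27422387 to 27521403, the 3 of them on the minus strand. The only annotated gene that shares exon bases with a receptor gene on the same strand was Mir592, inside Grm8, which had 0 UMIs in the files. Over all kept cells Grm5 had 25905 UMIs in 8393 cells, Grm7 3022 in 2417, Grm3 1743 in 1422, Grm4 1251 in 1053, Grm8 398 in 334 and Grm2 137 in 126. These totals mix cell classes of different number, and 3′ counts of different genes were not compared as levels.

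Grm5 was present in SST cells, PVALB cells and clusters 2 and 17 in every library with at least 10 cells of the group. It was nearly absent from oligodendrocytes. Of its WT UMIs, 48.7% lay in SST cells, 25.5% in PVALB cells and 13.3% in clusters 2 and 17, which held 35.2%, 13.5% and 7.002% of all WT UMIs. In PVALB cells Grm5 stood at 226, 275 and 249 CPM in WT cortex 1, 2 and 3, and at 619, 362 and 366 CPM in WT hippocampus 1, 2 and 3. In SST cells the values were 175, 169 and 159 CPM in cortex and 546, 233 and 288 CPM in hippocampus. In clusters 2 and 17 they were 241, 263 and 236 CPM in cortex and 483, 178 and 275 CPM in hippocampus. PVALB cells had the higher value in every one of the 6 WT libraries when set against SST cells, and in 5 of 6 when set against clusters 2 and 17, while SST cells exceeded clusters 2 and 17 in 3 of 6. The same order of PVALB over SST held in 4 of 4 null libraries.

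Averaged over the 6 WT libraries, the order of Grm5 levels was PVALB (349 ± 144 CPM, SD), clusters 2 and 17 (279 ± 105), SST (262 ± 148) and glutamatergic neurons (226 ± 119.6, n = 5), and neighbours in this stretch differed by less than their spread between libraries. Oligodendrocyte precursor cells (OPCs) followed at 68.0 ± 28.6 CPM, then astrocytes at 17.2 ± 17.003, committed precursors at 16.6 ± 9.17, microglia at 8.33 ± 9.65 (n = 4) and oligodendrocytes at 2.66 ± 1.21 CPM. Astrocytes had 10 Grm5 UMIs and microglia 3 in all WT cells, so the places of these 2 classes in the order are uncertain. At least 1 Grm5 UMI was found in 74.6% of WT PVALB cells (95% Wilson interval 72.4 to 76.6%), 64.0% of SST cells (62.5 to 65.5%) and 57.0% of cells of clusters 2 and 17, at median depths of 6890, 7328 and 3449 UMIs. Oligodendrocytes, taken as cells that should lack the gene, had a share of 0.935% (0.712 to 1.23%) at a median of 3316 UMIs. Thinned to 1000 UMIs per cell, with 20, 14, 151 and 627 shallower cells left out, the shares were 24.6%, 18.3%, 23.4% and 0.290%. Intervals on counts and shares cover counting error only.

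The class tests compared sums within libraries, with the library as a block. Between SST and PVALB cells 2 of the 3 receptor genes tested were called, against 23.9% of all 10530 genes tested. Grm5 was 1.39-fold higher in PVALB cells (log2 SST minus PVALB -0.47, SE 0.07, 95% interval -0.62 to -0.32, edgeR adjusted p 0.000116), and the within-library differences ran from -0.70 to -0.18 with a median of -0.50. Without the library block the log2 difference was -0.39 and the adjusted p 0.596, the highest of a range from 1.23e-07 over the alternatives, so the call rests on comparing the classes inside a library. Between SST cells and clusters 2 and 17 the log2 difference of Grm5 was -0.17 (-0.42 to 0.09, adjusted p 0.319, range 0.113 to 0.902). Between PVALB cells and clusters 2 and 17, edgeR called 0 of 1 receptor gene tested and DESeq2 0, while 20.9% of 8259 genes were called. Grm5 was the gene tested there, with an unadjusted p under 0.05 (1 of 1), as had 3347 or 40.5% of all genes. Its log2 difference was 0.30 (SE 0.11, 0.07 to 0.53) and its adjusted p 0.0468 (range 0.00857 to 0.610).

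Inside the SST class the clusters differed widely in Grm5, and the Chodl cluster stood apart. In cluster 23 Grm5 had 2, 8 and 9 UMIs in WT cortex 1, 2 and 3, or 5.11, 6.01 and 8.49 CPM, and none in 21 cells of WT hippocampus 2. It was the SST cluster with the least Grm5 in 6 of the 6 libraries with at least 10 of its cells, the highest value being 49.6 CPM in 19 cells of null hippocampus 2. Cluster 12, the Th cluster, ranged from 310.1 to 473 CPM over 8 libraries and was the highest SST cluster in 4 of them. Cluster 4 was the highest in 5 of 10 libraries.

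Pooled over WT cells, cluster 12 had 361 CPM (95% Poisson interval 341 to 382), cluster 4 had 260.0 (249 to 272), cluster 8 had 209.9 (200.4 to 219.6), cluster 26 had 151 (135 to 167), cluster 6 had 150.0 (141 to 159.6) and cluster 23 had 7.57 (4.74 to 11.5). These intervals pool libraries of different level, and 224 of the 298 WT cells of cluster 26 came from WT cortex 1. Its WT libraries with at least 10 such cells ran from 109 and 152 CPM in cortex to 305 CPM in hippocampus, and its null hippocampal libraries had 248 and 342 CPM. Without cluster 23, an alternative chosen after seeing the data, the log2 difference between SST and PVALB cells was -0.39 and the call remained. Among PVALB clusters Grm5 had 283 CPM in cluster 1 (273 to 293), 278 in cluster 31 (224 to 340) and 227 in cluster 25 (203 to 254), and cluster 25 was the lowest in 6 of 8 libraries. Pooled values of cluster 2, 297 CPM (282 to 313), and of cluster 17, 199 (175 to 225), come from different libraries. In the 2 libraries with at least 10 cells of both, cluster 17 was the higher in WT hippocampus 3 (368 against 272 CPM) and the lower in null hippocampus 2 (219 against 263 CPM).

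In the oligodendrocyte lineage Grm5 was highest in precursors and lowest in mature cells. OPCs had 40.7, 76.7 and 72.3 CPM in WT cortex 1, 2 and 3, and 118, 43.4 and 56.7 CPM in WT hippocampus 1, 2 and 3. Oligodendrocytes of the same libraries had 1.08, 2.25 and 3.06 CPM in cortex, and 2.65, 4.73 and 2.18 CPM in hippocampus. Committed precursors lay between the 2 stages in 6 of 6 WT libraries, at 7.53 to 34.3 CPM. OPCs had the higher level in 6 of 6 libraries, with 99 Grm5 UMIs in all WT cells against 62 in oligodendrocytes, which held more of all WT UMIs (25.01% against 1.72%). The gene passed the filter on low counts through OPCs alone and had to be higher in them, so its edgeR call (log2 4.02, 47.0% of 8794 genes called) adds nothing to the levels. With no filter on low counts the adjusted p was 5.83e-33. In the comparison named OPC minus oligodendrocyte cells in WT, scaling by library size in place of TMM moved the median of all genes from -0.12 to 0.49 and the share of calls that were higher in OPCs from 44.5% to 72.2%, and the log2 difference of Grm5 was 4.63 there. With each cell assigned by its own marker UMIs, Grm5 stood at 2.75, the lowest of the alternatives. A Grm5 UMI was found in 9.78% of OPCs (8.03 to 11.9%) at a median of 1417.5 UMIs, and in 7.57% after thinning, which left out 273 OPCs. Without WT cortex 1 or without WT hippocampus 2, Grm4 also passed, through oligodendrocytes, and its call likewise adds nothing. Over all WT libraries, with none left out, oligodendrocytes had 301 Grm4 UMIs and OPCs had 4.

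Grm5 was higher in WT hippocampus than in WT cortex in SST and PVALB cells by level, a difference that missed the adjusted threshold. Every WT hippocampal library exceeded every WT cortical library, at 233 to 546 against 159 to 175 CPM in SST cells and at 362 to 619 against 226 to 275 CPM in PVALB cells. In SST cells edgeR called 0 of 5 receptor genes by region (2 at an unadjusted p under 0.05, DESeq2 0). Of all 11858 genes it called 0.0169% (790 or 6.66% at an unadjusted p under 0.05, DESeq2 104). Grm5 was 2.04-fold higher in hippocampus (log2 1.03, SE 0.32, 0.31 to 1.75, unadjusted p 0.0104, adjusted p 0.365). In PVALB cells 0 of 3 receptor genes were called (2 at an unadjusted p under 0.05, DESeq2 0). Of all 8838 genes 0.0339% were called (382 or 4.32% at an unadjusted p under 0.05, DESeq2 29). Grm5 was 1.79-fold higher in hippocampus there (log2 0.84, SE 0.27, 0.24 to 1.44, edgeR unadjusted p 0.0105, adjusted p 0.655). In clusters 2 and 17 edgeR called 0 of 1 receptor gene (0 at an unadjusted p under 0.05, DESeq2 0) and 0% of 7845 genes (206 at an unadjusted p under 0.05, DESeq2 4). Grm5 had a log2 difference of 0.36 there (-0.45 to 1.17, adjusted p 0.999, range 0.960 to 1), in a comparison where WT hippocampus 2 gave almost only cluster 17. In cluster 2 alone Grm5 was 272 to 487 CPM in the other 2 WT hippocampal libraries against 232 to 264 CPM in WT cortex, and 263 to 280.5 against 222 CPM in null libraries, with no test.

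With the replicate number as a block, edgeR called 139 genes by region in SST cells (1.17%), 69 in PVALB cells (0.781%) and 4 in clusters 2 and 17 (0.0510%), and 0 receptor genes in each (DESeq2, run without the block, 0). Grm5 then had log2 differences of 0.94 (SE 0.21, unadjusted p 0.000754, adjusted p 0.0309) in SST and 0.79 (SE 0.19, unadjusted p 0.000785, adjusted p 0.0492) in PVALB cells, the lowest adjusted p-values of ranges that reached 1. Hippocampus library 1 carried much of the size, since without it the log2 differences were 0.58 in SST cells, 0.54 in PVALB cells and -0.09 in clusters 2 and 17. Within the v2 kit the SST values were 546 against 175 CPM, and within the v3 kit 233 and 288 against 169 and 159 CPM. Genes called without the block, named after their values were seen, were Ctsc (log2 5.08) and RP24-323H7.4 (4.20) in SST cells and Lamp5 (6.31), Ddit4l (4.29) and Rxfp3 (5.83) in PVALB cells. Over the alternatives these counts ran from 0 to 146 and from 0 to 91. The block called Nrp2 (2.64), Kit (-2.99), Nrgn (-2.65) and Rxfp3 (5.17) in clusters 2 and 17, and DESeq2 called Nrp2 (2.68), Kit (-2.95), Lmo7 (-2.75) and Rxfp3 (5.37), likewise named after their values were seen.

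The makeup of the SST class differed by region. Cluster 4 held 43.7%, 55.8% and 22.8% of SST cells in WT hippocampus 1, 2 and 3, and 13.1%, 26.5% and 21.0% in WT cortex 1, 2 and 3, where cluster 26 was 36.3% of library 1 and cluster 6 was 32.0% and 35.6% of libraries 2 and 3. The regional order of Grm5 was seen inside cluster 4, at 286 to 768 CPM in WT hippocampus and 125 to 203 CPM in WT cortex, and at 458 to 484 against 179 to 222 CPM in null libraries. Cluster 6 had 200.4 to 220.5 against 126 to 183 CPM and cluster 25 of the PVALB class 292 to 474 against 29.4 to 157 CPM in WT libraries. Ranges overlapped in cluster 1, at 281 to 723 against 245 to 298 CPM, in cluster 12, at 349 to 473 against 315 to 371 CPM, and in cluster 8, at 186 to 418 against 182 to 239.8 CPM. In cluster 8 of null libraries the order was the other way, with 179 to 193 CPM in hippocampus and 228 to 264 CPM in cortex, while hippocampus was the higher in null libraries in cluster 1 (425 to 426 against 249 to 268 CPM), cluster 6 (254 against 155 to 169.8 CPM), cluster 25 (534 against 171 CPM) and cluster 31 (389 against 317 CPM).

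Marker RNA of other classes also differed by region in SST and PVALB cells. The 7 oligodendrocyte markers all had UMIs in the SST cells of every WT library and summed to 346, 941 and 406 CPM in cortex and to 1889, 1595 and 1049.6 CPM in hippocampus. In PVALB cells, again with 7 of 7 markers, they summed to 133, 995 and 475 CPM in cortex and to 1742, 3665 and 2152 CPM in hippocampus. For clusters 2 and 17 the sums were 2335, 73.6 and 2282 CPM in cortex, with Opalin and Cldn11 at 0 in library 2, and 1843, 5999.8 and 674 CPM in hippocampus. Those last sums overlapped between regions. Oligodendrocytes themselves had at most 4.73 CPM of Grm5 in a WT library. The 4 OPC markers summed to 13.0, 19.1 and 28.1 CPM in SST cells of WT cortex and to 48.6, 41.8 and 50.5 CPM in WT hippocampus, where 3 of 4 were detected in each library. Most of these sums was Cacng4, at 10.9, 17.5 and 25.5 CPM in cortex and 42.7, 36.8 and 46.8 CPM in hippocampus, and the OPC sums of PVALB cells overlapped, at 14.7 to 18.6 against 11.7 to 43.4 CPM. The 8 neurogliaform markers summed to 203, 163 and 158 CPM in PVALB cells of WT cortex, with Lamp5 and Ndnf at 0 in libraries 1 and 2, and to 458, 336 and 253 CPM in WT hippocampus, with Ndnf at 0 in libraries 1 and 2. The part of these markers in the regional values was not tested.

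**Figure D1:**
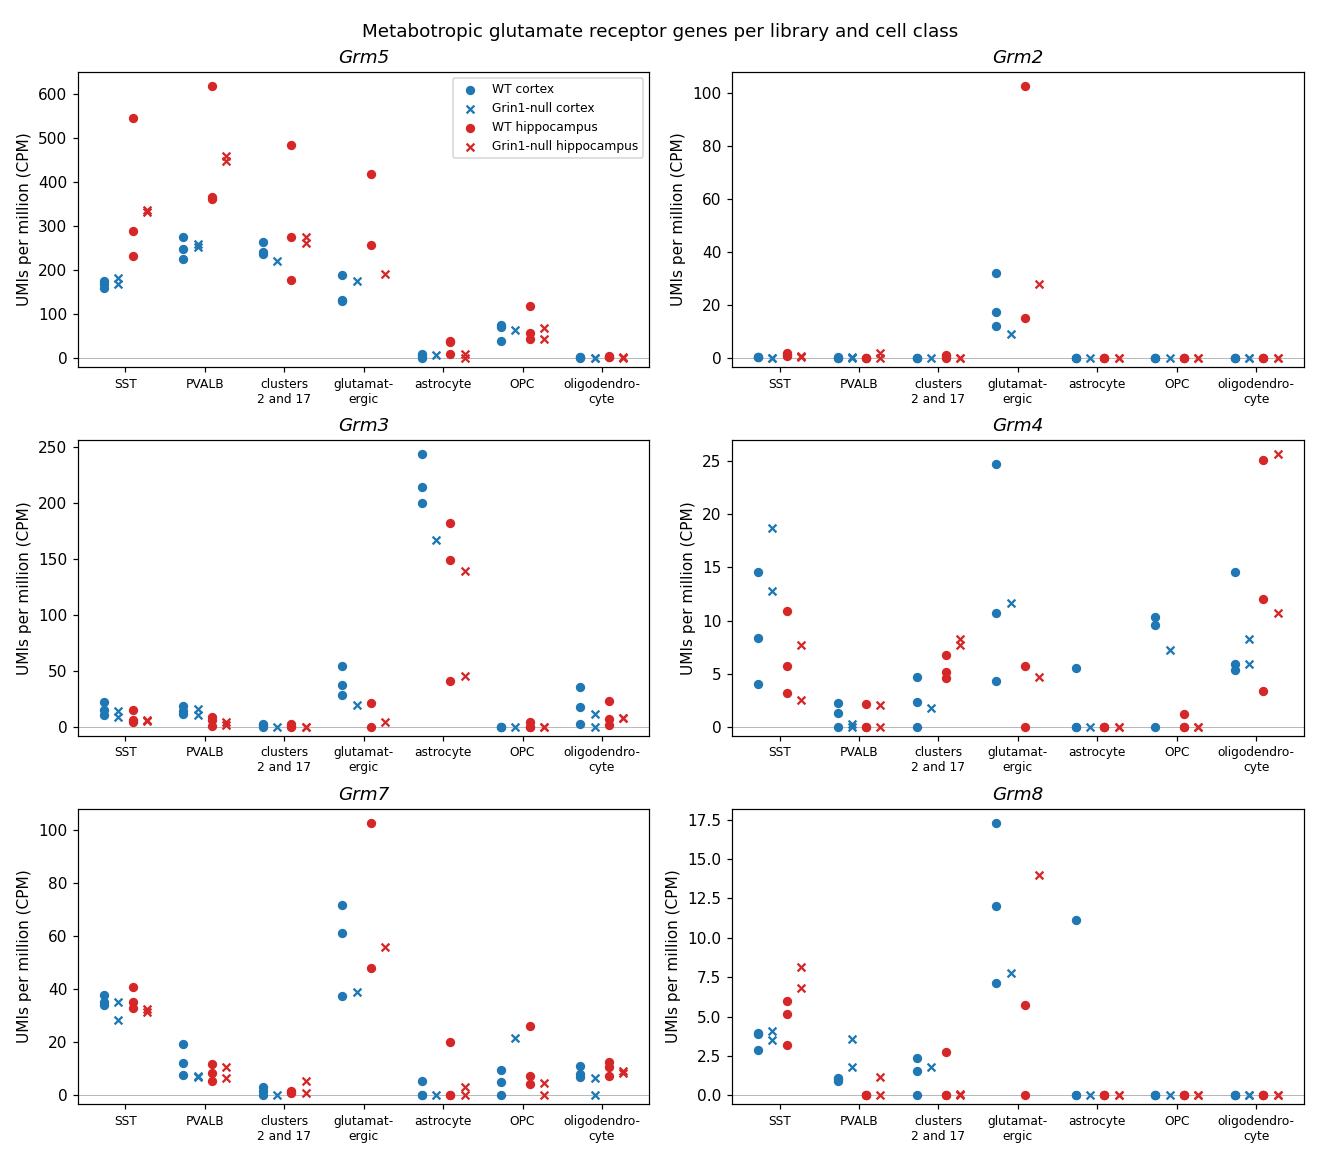
Level of each receptor gene (CPM, linear axes) in 7 cell classes, with a point for every library of at least 10 cells, circles for WT and crosses for Grin1-null, blue for cortex and red for hippocampus. Grm5 was found in the 3 interneuron groups and reached at most 4.73 CPM in oligodendrocytes of WT libraries, Grm7 stood at 32.8 to 40.8 CPM in SST cells of WT libraries, and Grm3 was highest in astrocytes, with 214, 244 and 200 CPM in WT cortex.

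Grm7, a group III receptor with low affinity for glutamate that lies in the presynaptic active zone, was higher in SST cells than in PVALB cells and in clusters 2 and 17. In SST cells it stood at 35.0, 34.0 and 37.8 CPM in WT cortex and at 35.2, 40.8 and 32.8 CPM in WT hippocampus. PVALB cells had 19.4, 12.3 and 7.66 CPM in cortex and 11.7, 5.43 and 8.61 CPM in hippocampus. Clusters 2 and 17 had 3.21, 0 and 1.56 CPM in cortex and 1.28, 0.928 and 1.61 CPM in hippocampus. The order of SST over PVALB over clusters 2 and 17 held in 6 of 6 WT libraries, and SST exceeded PVALB in 4 of 4 null libraries. SST cells held 61.2% of the WT Grm7 UMIs, with 35.2% of all WT UMIs.

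Grm7 was 3.54-fold higher in SST than in PVALB cells (log2 1.83, SE 0.18, 1.43 to 2.22, edgeR adjusted p 2.68e-06, range 2.24e-31 to 0.000184), with within-library differences from 0.82 to 2.70. Against clusters 2 and 17, which had 9 Grm7 UMIs in all WT cells where SST cells had 1147, the gene passed the filter on low counts through SST cells alone and had to be higher in them, so its call there (log2 4.57, 20.2% of 9665 genes called) adds nothing to the levels. In SST minus NGFC cells in WT (clusters 2 and 17) with no filter on low counts, the adjusted p was 4.34e-47. The log2 difference was 2.42 when each cell was assigned by its own marker UMIs in place of its cluster, and few UMIs leave the size imprecise. Without WT hippocampus 1, without WT hippocampus 2 or without cluster 17 (an alternative chosen after seeing the data), Grm3 also passed through SST cells and was called, which likewise adds nothing. Over all WT libraries, with nothing left out, SST cells had 510 Grm3 UMIs and clusters 2 and 17 had 6.

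A Grm7 UMI was found in 23.1% of WT SST cells (21.8 to 24.5%), 6.56% of PVALB cells, 0.672% of cells of clusters 2 and 17 and 3.65% of oligodendrocytes. After thinning to 1000 UMIs the shares were 3.81%, 1.13%, 0.0842% and 0.994%, and the lowest of them, in clusters 2 and 17, served as the background. Glutamatergic neurons had more Grm7 than SST cells in 5 of 5 WT libraries, at 71.7, 37.5 and 61.0 CPM in cortex and 103 and 48.0 CPM in hippocampus 2 and 3. The 103 CPM was 2 UMIs in 15 cells, and in WT cortex 2 SST cells were close, at 34.0 CPM. A UMI was found in 14.1% of glutamatergic neurons (5.07% thinned, 428 cells left out) at a median of 1031 UMIs. The WT order was glutamatergic neurons (64.2 CPM, raised by WT hippocampus 2), SST (35.9 ± 2.90), PVALB (10.8 ± 4.89), oligodendrocytes (9.48 ± 2.32), committed precursors (9.30 ± 5.37), OPCs (8.76), astrocytes (4.29 ± 8.14), clusters 2 and 17 (1.43 ± 1.05) and microglia (0). SST cells stood more than their own spread from both neighbours, whereas PVALB cells and the lineage of oligodendrocytes did not differ beyond theirs. Between OPCs and oligodendrocytes the log2 difference of Grm7 was -0.80 (SE 0.46, adjusted p 0.139, range 0.0225 to 0.717).

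Within the SST class pooled Grm7 was lower in the Th and Chodl clusters than in the others. Pooled WT levels were 42.4 CPM in cluster 6 (95% Poisson interval 37.6 to 47.6), 41.7 in cluster 4 (37.3 to 46.5), 39.2 in cluster 26 and 37.7 in cluster 8, with overlapping intervals between clusters 6 and 4. Cluster 23 had 19.6 CPM (14.9 to 25.4) and cluster 12 had 18.0 CPM (13.8 to 23.1). Cluster 12 was the lowest SST cluster in 5 of 8 libraries and cluster 23 in 3 of 6. In WT hippocampus cluster 12 ran from 15.1 to 37.5 CPM over 2 libraries. Among PVALB clusters Grm7 was highest in cluster 1, at 10.6 CPM (8.75 to 12.8), in 6 of 8 libraries. Cluster 12 was thus the SST cluster with the highest pooled Grm5 and, beside cluster 23 with its overlapping interval, the lowest pooled Grm7.

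Grm4, another group III receptor of presynaptic terminals, was measured in SST cells and in oligodendrocytes. SST cells had 4.02, 14.6 and 8.37 CPM in WT cortex and 3.20, 11.0 and 5.71 CPM in WT hippocampus. Oligodendrocytes had 5.92, 5.40 and 14.6 CPM in cortex and 12.1, 3.34 and 25.1 CPM in hippocampus. Oligodendrocytes held 44.0% of the WT Grm4 UMIs and SST cells 38.9%, with 25.01% and 35.2% of all WT UMIs. The higher of the pair by level was oligodendrocytes in 4 of 6 libraries. PVALB cells had at most 2.24 CPM and lay below SST cells in 6 of 6 WT and 4 of 4 null libraries.

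The WT order of Grm4 was oligodendrocytes (11.1 ± 8.12 CPM), glutamatergic neurons (9.12 ± 9.53), SST (7.81 ± 4.38), clusters 2 and 17 (3.93 ± 2.38), OPCs (3.52 ± 5.01), committed precursors (1.25 ± 1.40), PVALB (0.957 ± 1.09) and astrocytes (0.926), and neighbours did not differ beyond their spread. Oligodendrocytes nonetheless exceeded committed precursors in 6 of 6 WT libraries. The gene did not pass the filter on low counts in the main class tests. Without WT hippocampus 1 it passed between SST and PVALB cells through SST cells (266 UMIs against 17 over all WT libraries, that one included). Its call there adds nothing, as in the fits of OPCs and oligodendrocytes above. It was also called in both comparisons without the filter. A UMI was found in 5.93% of SST cells and, as the background, in 1.05% of PVALB cells, and in 0.915% and 0.251% after thinning. Among named clusters, pooled WT levels were highest in oligodendrocyte cluster 7, at 24.8 CPM (20.7 to 29.4), SST cluster 4, at 20.5 (17.4 to 24.0), oligodendrocyte cluster 10, at 16.96 (13.1 to 21.7) and the Chodl cluster 23, at 16.5 (12.2 to 21.9). These values pool libraries of different level. Within libraries cluster 4 was the highest SST cluster in 6 of 10. In WT hippocampus 2 cluster 23 had 21.5 CPM, above the 2.57 to 12.1 CPM of cluster 4 in that region, but from very few UMIs in 21 cells. Unnamed cluster 34 had 26.2 CPM from 1 UMI (0.663 to 146). SST cluster 8 had 4.72 CPM, cluster 6 had 1.65 and cluster 12 had 0.295. In cluster 4 every cortical library exceeded every hippocampal one, at 16.3 to 31.8 against 2.57 to 12.1 CPM in WT and at 28.7 to 65.5 against 2.15 to 10.9 CPM in null libraries. The order was the opposite in WT libraries in cluster 6, with 3.36 to 7.71 CPM in hippocampus against 0 to 1.47 CPM in cortex, in cluster 26, with 10.01 CPM in 1 hippocampal library against 0 to 1.72 CPM, and in cluster 2, with 5.26 to 6.67 against 0 to 4.93 CPM. The hippocampal values of cluster 6 (78 and 77 cells) and cluster 26 (52 cells) were very few UMIs. Null libraries had 5.16 CPM in hippocampus against 6.38 to 15.4 CPM in cortex in cluster 6, and 7.70 to 8.499 against 1.85 CPM in cluster 2.

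Grm8, the third group III gene, was found at low levels, in SST cells more than in PVALB cells. SST cells had 2.87, 3.89 and 3.97 CPM in WT cortex and 3.20, 5.97 and 5.14 CPM in WT hippocampus. PVALB cells had 0.921 to 1.12 CPM in WT cortex and 0 in the 3 WT hippocampal libraries. Those libraries held only 52, 175 and 83 PVALB cells, too few for a 0 to show absence or a regional difference. SST cells exceeded PVALB cells and clusters 2 and 17 in 6 of 6 WT libraries, in hippocampus against these zeros of PVALB cells. In null libraries SST cells exceeded clusters 2 and 17 in 3 of 3 and PVALB cells in 3 of 4, the exception being null cortex 1 with 3.59 CPM in PVALB and 3.52 CPM in SST cells. Oligodendrocytes had 0 Grm8 UMIs in all 10 libraries, where 3 counts would be 0.224 to 24.7 CPM. A UMI was found in 0 of 5457 WT oligodendrocytes, where 3 cells would be 0.0550% (a limit on cells with a UMI, not on cells that express the gene), against 2.84% of SST cells (0.407% thinned). The WT order was glutamatergic neurons (8.44 ± 6.55 CPM), SST (4.17 ± 1.18), microglia (2.19, from 1 UMI), astrocytes (1.85, from 2 UMIs), clusters 2 and 17 (1.12 ± 1.29), PVALB (0.515 ± 0.56805) and then OPCs, committed precursors and oligodendrocytes at 0. Pooled over WT cells, SST cluster 8 had 6.86 CPM (5.25 to 8.81) and cluster 6 had 5.54 (3.90 to 7.64), whose intervals overlapped, and cluster 23 had 0.

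Grm3, a group II receptor known in astrocytes as well as in neurons, was highest in astrocytes. They had 214, 244 and 200 CPM in WT cortex and 182, 40.6 and 149 CPM in WT hippocampus, against 10.53, 15.2 and 22.4 CPM in SST cells of cortex and 4.80, 14.9 and 6.28 CPM in SST cells of hippocampus. PVALB cells had 13.8, 11.2 and 18.6 CPM in cortex and 5.84, 9.04 and 1.08 CPM in hippocampus. Astrocytes exceeded SST cells in 6 of 6 WT and 3 of 3 null libraries. The astrocyte markers summed to at most 65.3 CPM in WT SST cells.

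The WT order of Grm3 was astrocytes (172 ± 71.6 CPM), glutamatergic neurons (28.2 ± 20.1), oligodendrocytes (14.5 ± 13.4), SST (12.4), PVALB (9.93 ± 6.14), clusters 2 and 17 (1.33 ± 1.17), OPCs (0.724), committed precursors (0.635) and microglia (0). Glutamatergic neurons, oligodendrocytes, SST and PVALB cells did not differ beyond their spread, while SST and PVALB cells each exceeded clusters 2 and 17 in 6 of 6 libraries. SST and PVALB cells differed by a log2 of 0.32 (SE 0.18, -0.06 to 0.71, adjusted p 0.189, range 0.0712 to 0.936). In OPCs Grm3 was 0 in all WT libraries but hippocampus 2, at 4.34 CPM, and oligodendrocytes exceeded them in 6 of 6. A UMI was found in 24.5% of WT astrocytes (20.5 to 29.1%; 13.8% thinned, 85 cells left out, median 2001 UMIs), 10.7% of SST cells (1.81% thinned), 9.47% of PVALB cells (1.32%) and 0.448% of cells of clusters 2 and 17 (0.168%), the class that served as background.

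Grm3 split the clusters of both interneuron classes. Cluster 6 was the highest SST cluster in 8 of 8 libraries, at 14.6 to 42.4 CPM, and had 32.9 CPM pooled over WT cells (28.7 to 37.6), where cluster 8 had 20.3 (17.5 to 23.5), cluster 26 had 16.2, cluster 12 had 12.1, cluster 4 had 3.79 (2.54 to 5.44) and cluster 23 had 0.344. Among PVALB cells cluster 31, which carried Crabp1 and Pthlh, was the highest in 5 of 5 libraries, at 10.53 to 36.1 CPM. Cluster 25, which also carried Pthlh, was the lowest in 8 of 8, at 0 to 2.84 CPM. Clusters 31, 1 and 25 had 26.6 (12.2 to 50.4), 15.7 (13.4 to 18.3) and 1.47 CPM pooled over WT cells.

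By region Grm3 had the opposite sign to Grm5. WT hippocampus lay below WT cortex in PVALB cells without overlap, at 1.08 to 9.04 against 11.2 to 18.6 CPM, and null hippocampus below null cortex, at 2.06 to 4.27 against 10.8 to 16.0 CPM. The makeup of PVALB cells differed too, since cluster 25, with the least Grm3, was 28.8%, 46.3% and 13.3% of them in WT hippocampus 1, 2 and 3, and 10.9%, 13.8% and 4.64% in WT cortex 1, 2 and 3. Inside cluster 1 the WT ranges overlapped, at 1.29 to 16.1 against 12.7 to 19.0 CPM, and the part of makeup in the regional value was not tested. In PVALB cells the log2 difference was -1.69 (SE 0.62, -3.05 to -0.34, edgeR unadjusted p 0.0192, adjusted p 0.826, range 0.227 to 1). Grm3 passed the filter on low counts there through the cortical libraries alone, where it was the higher, so this test adds nothing to the levels. In SST cells it was -1.08 (SE 0.47, -2.14 to -0.02, unadjusted p 0.0464, adjusted p 0.726, range 0.123 to 1). Neither passed the adjusted threshold. The PVALB value was -0.92 without WT hippocampus 3 and -2.63 without WT hippocampus 2. In SST cluster 8 WT hippocampus had 0 to 3.36 CPM and WT cortex 13.5 to 28.9 CPM. The other receptor genes had regional log2 differences in SST cells of -0.60 for Grm4, -0.04 for Grm7 (-0.54 to 0.47) and 0.31 for Grm8, and of -0.53 for Grm7 in PVALB cells, none of them called. Leaving out 1 library moved Grm4 from -1.03 (without WT hippocampus 2) to -0.12 (without WT cortex 2). Grm8 then ran from 0.16 (without WT hippocampus 2) to 0.52 (without WT hippocampus 1). In PVALB cells Grm7 ran from -0.89 (without WT cortex 3) to -0.22 (without WT cortex 1).

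Grm2, the other group II gene, encodes a receptor of glutamatergic terminals and in WT libraries was found mainly in glutamatergic neurons. They had 12.4, 32.2 and 17.4 CPM in WT cortex and 103 and 15.4 CPM in WT hippocampus 2 and 3, and held 66.3% of the WT Grm2 UMIs with 3.31% of all WT UMIs. Of the 36 null Grm2 UMIs they held 13 (36.1%, with 1.35% of all null UMIs) and SST cells 12 (33.3%, with 31.7%). SST cells had at most 2.13 CPM. Glutamatergic neurons were the higher class in 5 of 5 WT and 2 of 2 null libraries. A UMI was found in 6.69% of them (2.20% thinned) and in 0.532% of SST cells (0.153% thinned), and in 0 of 5457 oligodendrocytes, with the same limit on cells with a UMI of 0.0550%. After glutamatergic neurons (median 17.4 CPM over 5 libraries; mean 36.0 ± 38.1, raised by WT hippocampus 2 with 2 UMIs in 15 cells) the WT order was SST (0.955 ± 0.653), clusters 2 and 17 (0.375) and PVALB (0.112), with OPCs, committed precursors, oligodendrocytes, astrocytes and microglia at 0. Of the 2 glutamatergic clusters, cluster 18 had 35.0 CPM (20.0 to 56.9) and cluster 22 had 20.1 (15.0 to 26.5), with overlapping intervals. The gene passed no filter on low counts and has no test.

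**Figure D2:**
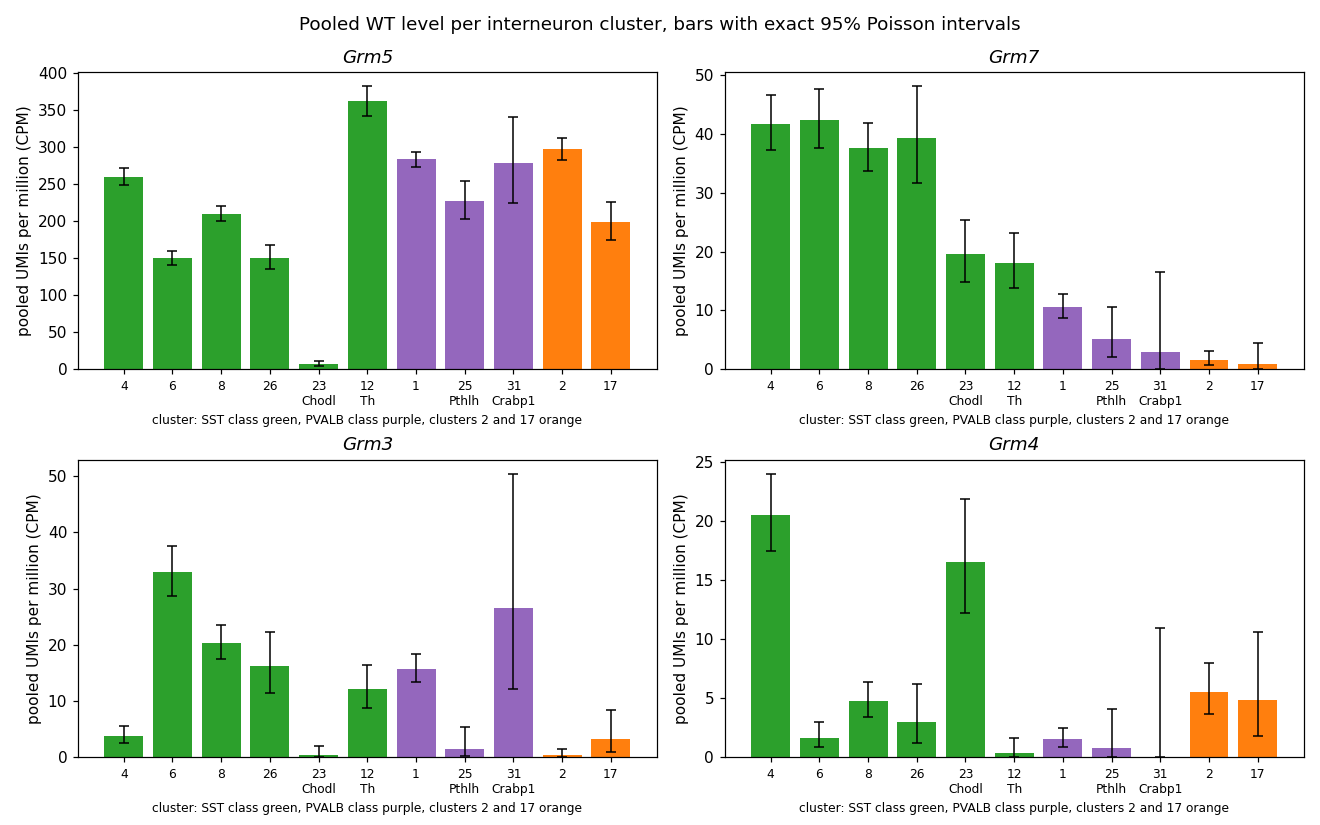
Pooled WT level (CPM, linear axes) of Grm5, Grm7, Grm3 and Grm4 in each interneuron cluster, as bars with exact 95% Poisson intervals, green for SST clusters, purple for PVALB clusters and orange for clusters 2 and 17. Grm5 ranged from 361 CPM in cluster 12 to 7.57 in cluster 23 among SST clusters, Grm7 was at 18.0 and 19.6 CPM in these clusters against 37.7 to 42.4 in the other SST clusters, Grm3 was highest in cluster 6 at 32.9, and Grm4 in cluster 4 at 20.5.

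The design's main question for these genes was whether loss of Grin1 shifts receptor expression in the cells that lost it. No receptor gene was called between Grin1-null and WT libraries in any of the 6 combinations of class and region. The same test called no gene at all there, not even the targeted Grin1, so a missing call does not show that a gene was unchanged. Grm5 in SST cells of cortex was 182 and 169 CPM in null libraries, the first just above and the other within the WT range of 159 to 175 CPM, and in SST cells of hippocampus 335 and 332 CPM, within the WT range of 233 to 546 CPM. In PVALB cells it was 259 and 253 CPM in null cortex and 449 and 458 CPM in null hippocampus, both within the WT ranges of 226 to 275 and 362 to 619. Inside clusters some null libraries lay outside the WT range, without a test and mostly from 1 null library. Null values were above it in cluster 25 (171 against 29.4 to 157 CPM in cortex, 534 against 292 to 474 CPM in hippocampus), in cluster 31 of cortex (317 against 242 to 299 CPM) and in cluster 6 of hippocampus (254 against 200.4 to 220.5 CPM). Cluster 23 of hippocampus had 49.6 CPM in 19 cells of null hippocampus 2 and 0 in 21 cells of WT hippocampus 2, few cells on both sides. Null values were below the WT range in cluster 12 of hippocampus (310.1 to 331 against 349 to 473 CPM) and in clusters 2 (222 against 232 to 264 CPM) and 23 (4.49 against 5.11 to 8.49 CPM) of cortex. In clusters 2 and 17 it was 221 CPM in null cortex 2, under the WT range of 236 to 263, and 276 and 262 CPM in null hippocampus, within 178 to 483. Paired by replicate number, log2 null minus WT of Grm5 in SST cells was 0.06 and 0.00 in cortex and -0.70 and 0.51 in hippocampus, and in PVALB cells 0.20 and -0.12 in cortex and -0.46 and 0.34 in hippocampus.

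In the fits Grm5 had log2 changes of 0.08 (SE 0.32, 95% interval -0.61 to 0.78) in SST cells of cortex, -0.07 (0.32, -0.76 to 0.62) in SST cells of hippocampus, 0.05 (0.28, -0.55 to 0.65) in PVALB cells of cortex and 0.02 (0.28, -0.57 to 0.62) in PVALB cells of hippocampus. In clusters 2 and 17 they were -0.18 (0.49, -1.24 to 0.89) in cortex and -0.20 (0.38, -1.03 to 0.63) in hippocampus. A change of 2-fold in either direction lay outside the interval in the 4 tests of SST and PVALB cells. Without WT hippocampus 1 the estimates in hippocampus were 0.37 in SST cells, 0.30 in PVALB cells and 0.25 in clusters 2 and 17, none called.

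The other receptor genes were measured less precisely, except for Grm7 in SST cells. In SST cells of cortex the log2 changes were -0.61 for Grm3 (-1.65 to 0.43), 0.76 for Grm4 (-0.44 to 1.95), -0.17 for Grm7 (-0.70 to 0.36) and 0.15 for Grm8 (-0.74 to 1.03). In SST cells of hippocampus they were -0.50, -0.01, -0.15 (-0.69 to 0.39) and 0.72 (-0.17 to 1.60). None was called, and 1 library could move the estimate. Grm4 in hippocampus was -1.20 without null hippocampus 2 and 0.43 without WT hippocampus 2, and in cortex 0.43 without WT cortex 1 and 1.23 without WT cortex 2. Grm3 was -0.18 in cortex without null cortex 2, and 0.02 and -0.76 in hippocampus without WT hippocampus 2 and 1. Grm8 there had 6.83 and 8.12 CPM in null against 3.20, 5.97 and 5.14 CPM in WT libraries, ranges that did not overlap, with an unadjusted p of 0.102 and an adjusted p of 1 (range 0.6 to 1). Grm7 in SST cells stood at 35.2 and 28.6 CPM in null cortex and at 31.6 and 32.7 CPM in null hippocampus, the latter just under the WT range of 32.8 to 40.8. In PVALB cells Grm7 was 7.19 and 6.95 CPM in null cortex, below the WT range of 7.66 to 19.4 (log2 -0.80, -1.94 to 0.34), and 6.41 and 10.8 CPM in null hippocampus (log2 0.19). Grm3 in PVALB cells had log2 changes of -0.02 in cortex and -0.95 in hippocampus, where it was -0.04 without null hippocampus 2 and -1.72 without WT hippocampus 3. Grm4 in clusters 2 and 17 of hippocampus was 8.31 and 7.69 CPM in null and 4.64 to 6.77 CPM in WT libraries, without a test. Inside cluster 6 of cortex Grm4 was 6.38 to 15.4 CPM in null and 0 to 1.47 CPM in WT libraries, also without a test. In cluster 6 of hippocampus its ranges overlapped. Between so few null and WT libraries, ranges can fail to overlap with no change in level. Other untested values by class that did not overlap rest on few UMIs. Grm2 in SST cells was 0 to 0.325 CPM in null against 0.383 to 0.648 CPM in WT cortex and 0.663 to 0.854 against 0.996 to 2.13 CPM in hippocampus, at most 8 UMIs in a library. Grm8 in PVALB cells of cortex was 1.81 to 3.59 CPM in null against 0.921 to 1.12 CPM in WT libraries, at most 7 UMIs in a library.

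In SST cells of cortex edgeR called 0 of 5 receptor genes (0 at an unadjusted p under 0.05, DESeq2 0) and 0% of 12834 genes (289 at an unadjusted p under 0.05, DESeq2 2). Among hippocampal SST cells it called 0 of 5 (0 unadjusted, DESeq2 0) and 0% of 12834 genes (409 unadjusted, DESeq2 1). In PVALB cells of cortex 0 of 3 receptor genes were called (0 unadjusted, DESeq2 0) and 0% of 9754 genes (358 unadjusted, DESeq2 12), and with the replicate block 0 of 3 and 0.0410% (665 unadjusted). In PVALB cells of hippocampus the counts were 0 of 3 (0 unadjusted, DESeq2 0) and 0% of 9754 (319 unadjusted, DESeq2 1). In clusters 2 and 17 they were 0 of 1 (0 unadjusted, DESeq2 0) and 0% of 9769 in cortex (141 unadjusted, DESeq2 0), where the null group rests on 1 library that is assumed to vary like the other groups, and 0 of 1 (0 unadjusted, DESeq2 0) and 0% of 9769 in hippocampus (312 unadjusted, DESeq2 1). The gene called by DESeq2 in SST and PVALB cells and in clusters 2 and 17 of hippocampus was Grin1, and in SST cells of cortex Grin1 and Akr1c18 (log2 3.68). The 4 genes called with the block in PVALB cells of cortex were Opn3 (3.28), Spp1 (3.33), Egfr (3.83) and Hapln1 (2.70). Akr1c18 and these 4 are named after their values were seen.

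The null and WT groups also differed in makeup and depth. Cluster 31 was 22.2% and 24.2% of PVALB cells in null cortex and 7.30%, 2% and 2.69% in WT cortex. Cluster 25 was 3.70% and 29.8% of PVALB cells in null cortex and 4.64% to 13.8% in WT cortex, and cluster 23 was 3.57% and 23.1% of SST cells in null cortex and 5.35%, 13.2% and 4.04% in WT cortex. The cell filter removed more cells from null libraries 2, keeping 2578 of 2898 in cortex and 4055 of 4436 in hippocampus, than from null libraries 1 (177 of 181 and 401 of 404) or any WT library, where the most were lost in WT cortex 3 (3930 kept of 3960). The oligodendrocyte markers summed to 109 and 170 CPM in SST cells of null cortex, with 6 of 7 and 7 of 7 detected and Opalin at 0 in library 1, below the 346 to 941 CPM of WT cortex. In SST cells of null hippocampus they summed to 1998 and 844 CPM, with 7 of 7 detected. In the same cells the 7 astrocyte markers, Aldoc the most abundant, summed to 55.1 and 74.4 CPM in null cortex and 114 and 95.7 CPM in null hippocampus, above WT cortex (33.7, 19.1 and 17.2) and WT hippocampus (44.8, 25.9 and 65.3). Most of each sum was Aldoc, at 55.1 and 72.4 CPM in null cortex and 113 and 92.2 CPM in null hippocampus. In WT libraries Aldoc had 31.6, 14.4 and 15.8 CPM in cortex and 41.1, 22.9 and 61.1 CPM in hippocampus. The higher sums of null libraries were thus those of Aldoc. Aqp4, Gja1, Aldh1l1, Gjb6 and Fgfr3 were at 0 in null cortex 1, null hippocampus 1 and WT hippocampus 1 and 2, and Slc1a3 was also at 0 in null cortex 1. The part of makeup, depth, removed cells and these markers in the receptor values was not tested.

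The test of whether the genotype difference itself differed between hippocampus and cortex (an interaction term in edgeR; DESeq2 was not run for it) called none of the 5 (SST), 3 (PVALB) and 1 (clusters 2 and 17) receptor genes tested, with 0 at an unadjusted p under 0.05. It called 0 of 12834, 9754 and 9769 genes, with 82, 108 and 41 at an unadjusted p under 0.05. For Grm5 the difference of differences was -0.16 (SE 0.45) in SST cells, -0.03 (0.40) in PVALB cells and -0.02 (0.62) in clusters 2 and 17.

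**Figure D3:**
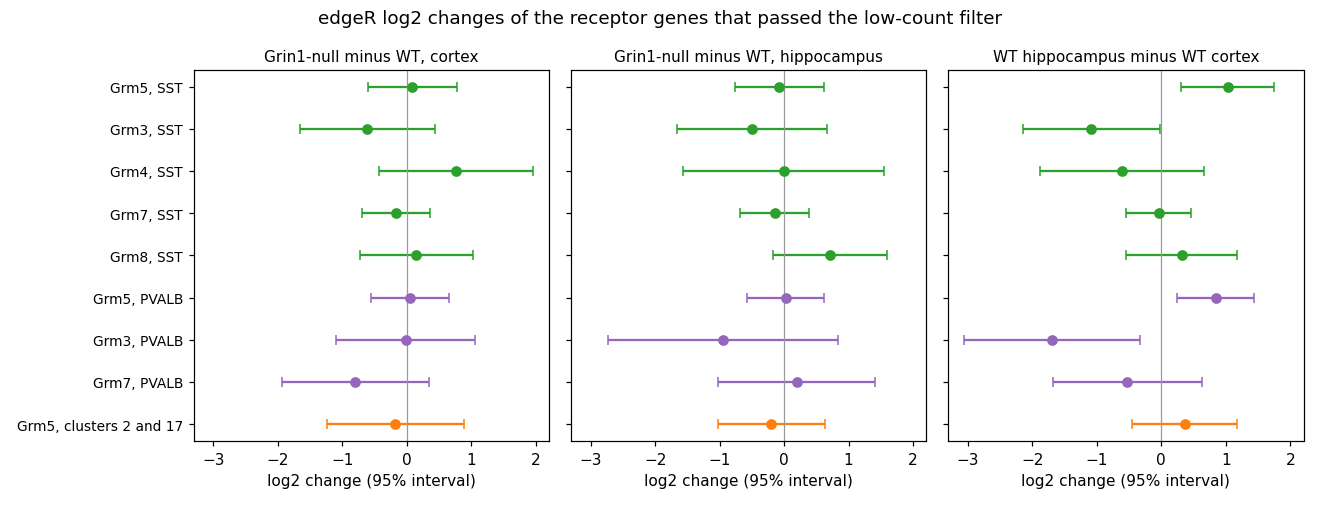
edgeR log2 changes with 95% intervals of the receptor genes that passed the filter on low counts, for Grin1-null minus WT in cortex and in hippocampus and for WT hippocampus minus WT cortex, coloured by cell class. The genotype intervals all include 0, and the regional ones exclude 0 for Grm5 (1.03 in SST and 0.84 in PVALB cells) and Grm3 (-1.08 and -1.69), none of which passed the adjusted threshold. In PVALB cells Grm3 passed the filter through the cortical libraries alone, where it was the higher, so its regional interval adds nothing to the levels.

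The partners of these receptors were followed in a list of 33 genes: 8 postsynaptic partners such as the Homer and Shank scaffolds, 9 genes of the Gq route, 12 of the Gi/o route and 4 presynaptic partners. Elfn1 and Elfn2 encode postsynaptic adhesion proteins that bind group III receptors across the cleft. Unlike Grm5, genes of this list were not left out of the clustering, so its calls between classes are a description, given beside the share of all genes called. Between SST and PVALB cells edgeR called 8 genes higher and 9 lower in SST cells of 32 tested, where 23.9% of all genes were called (list median -0.05, all genes 0.01), with the same counts and signs under library-size scaling. Among the genes higher in SST cells were Elfn1 (log2 2.83), Elfn2 (0.68), Adcy2 (4.04), Gnai2 (0.76), Plcb1 (0.58), Gnai1 (0.37) and Gnao1 (0.35). Those lower were Itpr1 (-1.55), Prkca (-1.49), Rgs4 (-1.17), Kcnj3 (-0.79), Kcnj6 (-0.72), Adcy8 (-0.66), Kcnj9 (-0.66), Shank1 (-0.63) and Adcy1 (-0.39). Elfn1 and Grm7 were thus both higher in SST than in PVALB cells, and the 3 inwardly rectifying potassium channel genes of the list (Kcnj3, Kcnj6, Kcnj9), targets of Gi/o-coupled receptors, were all lower.

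Between SST cells and clusters 2 and 17, 5 of 30 genes were higher in SST cells and 9 lower, where 20.2% of all genes were called (list median -0.11, all genes -0.01). Elfn1 (5.74), Adcy2 (1.62), Plcb1 (0.93) and Ncdn (0.46) were among the higher ones. Prkca (-2.40), Homer2 (-2.10), Kcnj6 (-2.06), Adcy1 (-0.80), Gnai1 (-0.75), Itpr1 (-0.73), Shank2 (-0.70), Plcb4 (-0.56) and Gnao1 (-0.30) were lower, 1 gene fewer passing under library-size scaling. Between PVALB cells and clusters 2 and 17, where 20.9% of all genes were called, 5 of 28 list genes were higher in PVALB cells, among them Adcy8 (3.13), Kcnj9 (1.34) and Rgs4 (1.33), with Itpr1 (0.81) and Kcnj3 (0.53). Another 9 were lower, among them Adcy2 (-2.13), Homer2 (-2.01), Kcnj6 (-1.14) and Gnai1 (-1.10), at a list median of 0.00 against -0.02 over all genes. Homer2, whose product binds Grm5 protein, was thus higher in clusters 2 and 17 than in either other class.

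Between OPCs and oligodendrocytes 8 of 20 genes were higher in OPCs and 5 lower, where 47.0% of all genes were called (list median 0.06, all genes -0.12), and library-size scaling gave 11 and 3, with no called gene changing sign. Of the 9 genes of the Gq route 7 were tested, and those called were Plcb1 (3.13), Itpr1 (2.88), Prkcb (2.38) and Plcb4 (1.77), each higher in OPCs. Homer2 (5.06), Elfn1 (4.46), Grip1 (2.86) and Elfn2 (1.33) were also higher. Gnai1 (-2.50), Homer3 (-2.05), Adcy5 (-1.42), Gnao1 (-1.05) and Ncdn (-0.93) were lower.

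By genotype edgeR called 0 genes of the list in the 6 combinations of class and region, and DESeq2 0. An unadjusted p under 0.05 was found in cortex for 4 of the 33 list genes tested in SST cells, 2 of the 30 in PVALB cells and 1 of the 28 in clusters 2 and 17, and in hippocampus for 1, 2 and 1. Over all genes the shares were 2.25%, 3.67% and 1.44% in cortex and 3.19%, 3.27% and 3.19% in hippocampus. The list medians were -0.12, -0.06 and -0.24 in cortex and -0.20, -0.12 and -0.24 in hippocampus, where all genes stood at -0.01, -0.01, -0.03, -0.03, -0.01 and -0.06. By region edgeR called 0 of 32, 29 and 26 list genes in SST cells, PVALB cells and clusters 2 and 17, with 3, 4 and 0 at an unadjusted p under 0.05, and DESeq2 called 1, 0 and 0. Over all genes 6.66%, 4.32% and 2.63% had such a p, and DESeq2 called 104, 29 and 4. The list gene DESeq2 called was Prkcb in SST cells, with an edgeR log2 of -1.68 in hippocampus. The regional list medians were -0.11, 0.02 and -0.01, against 0.02, 0.02 and 0.01 over all genes.

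Genes whose level followed a receptor gene most closely over clusters were ranked by Pearson's r of log2(pooled WT CPM + 1) over the 34 clusters with at least 50 WT cells, among 13090 genes. The clusters share libraries and differ in depth, so r is a description. For Grm5 the closest genes were Unc80 (0.955), Gabbr2 (0.952) and Rgs7bp (0.95002). Gabbr2 encodes a subunit of the GABA-B receptor, a Gi/o-coupled receptor, and Unc80 a subunit of a sodium leak channel. For Grm2 they were Rgs14 (0.959), Adcyap1 (0.941) and Itpka (0.925). For Grm7 they were Map6 (0.813), Rnf112 (0.789) and Kcnq3 (0.770), for Grm3 Rasl11b (0.726), Prickle2 (0.705) and Synpo (0.697), for Grm4 Ankrd13b (0.802), Cog4 (0.745) and Igsf8 (0.729), and for Grm8 Spag6 (0.855), Agbl4 (0.811) and P4ha2 (0.798). The highest level behind the Grm4 values was 26.2 CPM in unnamed cluster 34, a single UMI, and behind those of Grm8 22.2 CPM in unnamed cluster 20, from 7 UMIs. Between the receptor genes themselves r ran from -0.141 (Grm4 and Grm5) to 0.577 (Grm4 and Grm7) over the 15 pairs.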

How the data were processed

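The authors aligned reads to mm10 and counted UMIs with Cell Ranger (2.1.1 in the submitters' notes, another version in the matrix headers), and the deposited matrices hold whole-number counts per gene and cell, not normalized. Of 26987 cells, the 26201 with 200 to 6000 genes and a mitochondrial share under 30% were integrated and clustered in Seurat 5.3.0 (CCA, 2000 features less Grm5, the 1 receptor gene among them, 25 dimensions, resolution 1). Clusters were named from fixed markers, and their cells were assigned the same class by their own markers in 89.3% of SST, PVALB and clusters 2 and 17. Scrublet marked 249 cells (0.950%), left out as an alternative only.

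UMIs were summed per library and class, sums under 10 cells were left out, and edgeR 4.0.16 (quasi-likelihood, TMM, filterByExpr, Benjamini-Hochberg over all genes tested; steps checked on simulated data) called an adjusted p under 0.01 with an absolute natural-log change of at least 0.1. Genotype tests used 1 model per class over 4 groups. Alternatives were DESeq2 1.42.0, library-size scaling, no filter on low counts, an adjusted p under 0.05, a stricter cell filter, single-cell classes, no doublets, the 2 compared groups alone, the replicate block and leaving out each library. Deviations of same-numbered WT cortex and hippocampus libraries correlated at 0.209 to 0.654 in each class and those of different number at -0.566 to 0.210, the highest being cortex 3 with hippocampus 2 in clusters 2 and 17, so the pairing by number is a block in alternatives of the region and genotype tests only. Named genes are the receptor genes, Grin1, the 33 signalling genes and the 3 genes most like each receptor gene. Members and lists were chosen with earlier results of these data known. Some genes of the marker and signalling lists are counted but not reported here by name.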

Additional observations from a re-analysis of the deposited data

How the results depend on the processing

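Over 13 comparisons, 224 alternative counts of called receptor genes were computed, of which 213 stayed within 1.5 times the reported count and 11 did not. No alternative called a receptor gene by genotype (0 of 117) or by region (0 of 45, edgeR or DESeq2), and no call changed sign. Since the main genotype tests did not call Grin1 either, a missing call by genotype does not show that a gene was unchanged. In SST minus PVALB cells in WT, no filter on low counts gave 4 called (Grm4, Grm5, Grm7, Grm8), the fit without the library as replicate block gave 1 (Grm7), and leaving out a library gave 2 to 3. In SST minus NGFC cells in WT (clusters 2 and 17), no filter gave 3 (Grm3, Grm7, Grm8), leaving out a library 1 to 2, and leaving out cluster 17 gave 2. In PVALB minus NGFC cells in WT, no filter gave 3 (Grm3, Grm5, Grm7), an adjusted p under 0.05 gave 1 (Grm5) and leaving out a library 0. In OPC minus oligodendrocyte cells in WT, no filter gave 3 (Grm3, Grm4, Grm5) and leaving out a library 1 to 2. The replicate block changed no other call. Counts of all genes called ran from 549 to 3674, 763 to 2928, 486 to 2553 and 2916 to 5896 in these 4 comparisons, and without the filter genotype counts reached 25, 55 and 3 in SST cells, PVALB cells and clusters 2 and 17 of cortex and 17, 14 and 22 in hippocampus. Where a filter or a threshold is loosened more genes can be called; the cause of the other shifts was not tested. Alternatives without cluster 23, with unnamed cluster 9 or without cluster 17 were chosen after seeing the data. Genotype in clusters 2 and 17 of cortex could not be fitted without null library 2. Depth limits Grm2 and Grm8, with 137 and 398 UMIs in all, to wide counting intervals.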

Other observations

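Cells outside the classes compared above also held receptor transcripts. Unnamed cluster 20, 520 cells of low UMI count, had 133 CPM of Grm7 pooled over WT cells (95% Poisson interval 95.8 to 179.7, 42 UMIs) and 98.2 CPM over null cells (44.9 to 186), above the 54.8 and 50.9 CPM of the glutamatergic clusters 18 and 22. Its Grm8 was 22.2 CPM, from 7 UMIs (8.91 to 45.6).

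Unnamed cluster 24, led by Oxt and Avp (402 cells), had 15.4 CPM of Grm8 in WT cells from 19 UMIs (9.26 to 24.0) and 4.79 CPM in null cells, with Grm5 at 141 and 96.5 CPM and Grm7 at 20.2 and 15.7 CPM. Unnamed cluster 9, 1161 cells with more SST than other markers, had 288 CPM of Grm5 in WT and 287 in null cells, and 36.6 and 36.1 CPM of Grm7. The choroid plexus cluster 32 had 8.99 CPM of Grm8, from 8 UMIs (3.88 to 17.7).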
